A study of Homo sapiens with 14 samples.

Results

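The genes described here are 51 genes of the amino acid response, the unfolded protein response and cytosolic tRNA charging, out of 13734 genes in an RNA-seq table of the human breast cancer line MDA-MB-231. They are taken from a list of gene names, with no threshold on a measured value, and fall into 3 classes: 20 amino acid response genes, 14 genes of endoplasmic reticulum (ER) stress and 17 genes for cytosolic aminoacyl-tRNA synthetases. All 51 names were found in the table and all 51 passed the filter on low values. STC2, a secreted glycoprotein gene, was so low in every group (0.211 to 2.43 scaled RPM, with 6 reads in the lowest library) that its fold changes are imprecise, and it passed the filter through its YAP/TAZ siRNA and control siRNA libraries. Its fall with BRD siRNA enters the counts below, although the control siRNA libraries that let it pass are the reference there.

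When amino acids run short or unfolded proteins build up in the ER, kinases that include PERK (the product of EIF2AK3) phosphorylate the translation factor eIF2alpha. Translation then falls overall while the mRNA of ATF4, a transcription factor, is translated more, so ATF4 activity can change with little change in ATF4 mRNA. ATF4 acts on genes for amino acid uptake and synthesis, for tRNA synthetases and for feedback regulators. The other ER sensors, IRE1 (the product of ERN1) and ATF6, act through the spliced form of XBP1 and through cleaved ATF6 on chaperones and on ER-associated degradation, which draws misfolded proteins out of the ER.

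The table holds 14 libraries of total RNA in 7 groups of 2. Cells of 4 groups received siRNA against YAP and TAZ, transcriptional co-activators of the Hippo pathway (mix 1 and mix 2, harvested at 48 h), or siRNA against BRD bromodomain proteins (mix A and mix B, harvested at 72 h), and their reference was control siRNA. Cells of the sixth group received JQ1, an inhibitor of BET bromodomains, at 1 µM for 24 h, with DMSO vehicle as the reference. All groups were grown in DMEM:F12 with 10% serum, and no harvest time is given for control siRNA or DMSO. The labels do not say that the 2 libraries of a group came from separate cultures, so the p-values measure only the spread between these libraries, which may be technical. Each siRNA target had 2 mixes, which are averaged below unless a mix is named. In bulk RNA, fewer cells with a transcript and less of it per cell cannot be told apart.

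The libraries held 15741695 to 37311326 reads, of which the 51 genes took 0.627 to 0.841%. The targeted genes went the way of the labels: YAP1 averaged 21.6 ± 2.34 scaled RPM with YAP/TAZ siRNA (SD, n = 4) against 182 ± 11.4 with control siRNA (SD, n = 2), and BRD3 averaged 9.76 ± 0.742 with BRD siRNA (SD, n = 4) against 31.1 ± 1.96 with control siRNA (SD, n = 2). VIM, a mesenchymal gene that marks this line, had group means of 2951 to 6583 scaled RPM. Of 11 marker genes of leukocytes, fibroblasts and endothelial cells, 5 were in the table (CD14, LYZ, COL1A1, PDGFRB and PECAM1). Their summed level was 57.5 to 73.2 scaled RPM in YAP/TAZ siRNA libraries and 9.55 to 15.9 in BRD siRNA libraries, against 16.1 to 20.8 in control siRNA libraries, and 8.26 to 8.50 in JQ1 libraries against 6.03 to 7.57 in DMSO libraries. All 5 were called higher with YAP/TAZ siRNA, where 43.1% of all genes were. What part the rise of these markers had in the values below was not tested.

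Most of the genes moved in each comparison, but so did most genes of the table. A gene is called when its adjusted p is under 0.05 in limma, with Benjamini-Hochberg adjustment over all 13674 genes tested, and fold changes are on the scale of log2(scaled RPM + 1). With YAP/TAZ siRNA against control siRNA, 12 of the 51 were called higher and 29 lower, where 43.1% of all genes were called higher and 35.9% lower. With BRD siRNA, 14 were called higher and 27 lower, where 37.6% of all genes were called in each direction. With JQ1 against DMSO, 23 were called higher and 17 lower, where 37.6% of all genes were called higher and 36.3% lower. The median log2 fold change of the 51 was -0.28 with YAP/TAZ siRNA, -0.15 with BRD siRNA and 0.09 with JQ1, beside medians over all genes of 0.07, -0.0047 and 0.01.

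The 3 classes differed in direction. Of the 17 synthetase genes, 14 fell and 1 rose with YAP/TAZ siRNA, 13 fell and 2 rose with BRD siRNA, and 8 fell and 4 rose with JQ1. Of the 20 amino acid response genes, 10 fell and 6 rose with YAP/TAZ siRNA, 11 fell and 6 rose with BRD siRNA, while 6 fell and 11 rose with JQ1. Of the 14 ER stress genes, 5 fell and 5 rose with YAP/TAZ siRNA, 3 fell and 6 rose with BRD siRNA, and 3 fell and 8 rose with JQ1. Beside these class counts, 35.9%, 37.6% and 36.3% of all genes were called lower in the 3 comparisons, and 43.1%, 37.6% and 37.6% higher. The ER stress counts with YAP/TAZ siRNA were thus near the shares of all genes. They also stand for neither mix, since mix 1 raised 10 of the 14 and lowered 1, while mix 2 raised 3 and lowered 9. The 2 knockdown comparisons share their control siRNA libraries, so their values are set side by side without a test of their likeness. JQ1 and its vehicle share no library with the knockdowns: 15 of the 51 genes were called in opposite directions with YAP/TAZ siRNA and with JQ1, where 13.5% of all genes were, and 8 with BRD siRNA and with JQ1, where 11% of all genes were. Of the 15, HYOU1, EDEM1, TRIB3 and PPP1R15B lost or reversed their YAP/TAZ call with 1 of the mixes, and TRIB3, CHAC1, SEL1L, PPP1R15B and DARS lost or reversed it with DMSO as the reference. Of the 8, EPRS and SARS lost their BRD call with mix A alone, and CHAC1 and DARS lost or reversed it with DMSO as the reference. EPRS and DARS also lost it when 1 control siRNA library was left out. PSAT1 and WARS lost their JQ1 call when 1 JQ1 or DMSO library was left out.

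**Figure D1:**
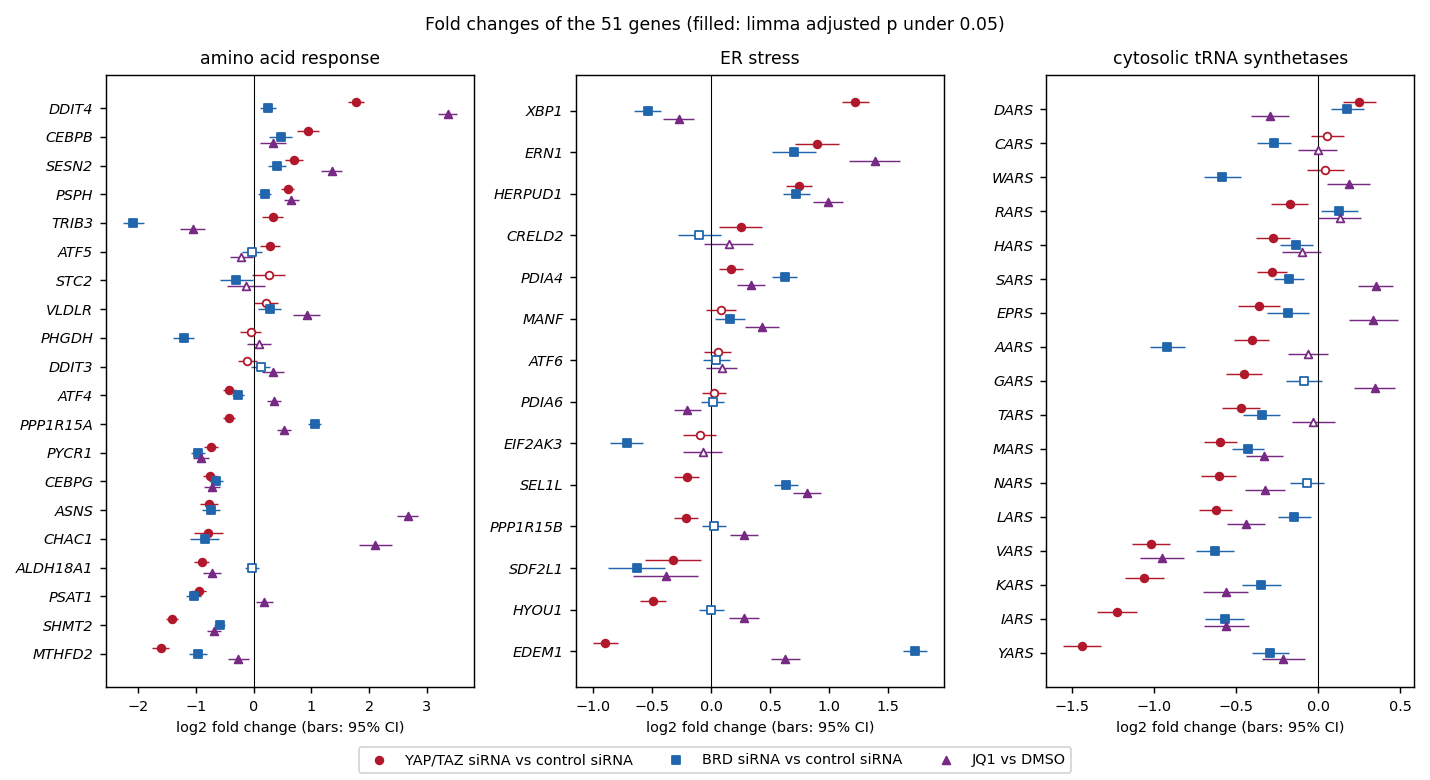
Log2 fold changes of the 51 genes in 3 panels (amino acid response, ER stress, cytosolic tRNA synthetases), for YAP/TAZ siRNA vs control siRNA (circles), BRD siRNA vs control siRNA (squares) and JQ1 vs DMSO (triangles); bars are 95% confidence intervals and filled symbols have a limma adjusted p under 0.05. DDIT4, ASNS and CHAC1 stand far to the right for JQ1, at 3.36, 2.67 and 2.11, and YARS, IARS, KARS and VARS lie lowest among the synthetases for YAP/TAZ siRNA, at -1.44 to -1.02.

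ATF4 mRNA itself moved little, and in opposite directions with the knockdowns and with the inhibitor. It was at 288 and 277 scaled RPM with YAP/TAZ mix 1, 214 and 224 with mix 2, 264 and 291 with BRD mix A and 271 and 277 with BRD mix B, against 315 and 353 with control siRNA. With JQ1 it was at 442 and 439, against 347 and 343 with DMSO. No library of a treated group overlapped its reference. The log2 fold changes were -0.42 ± 0.053 with YAP/TAZ siRNA, -0.27 ± 0.053 with BRD siRNA and 0.35 ± 0.061 with JQ1 (SE; limma adjusted p = 2.64e-07, 8.48e-05 and 2.41e-05). DDIT3, which encodes the stress-induced factor CHOP, was called with JQ1 and with neither knockdown, at 24.2 and 26.2 scaled RPM against 20.4 and 19.2 with DMSO (log2 fold change 0.34, limma adjusted p = 0.00256). The knockdown result rested on the reference and the mix. With DMSO as the reference, DDIT3 was called lower with YAP/TAZ siRNA (-0.55) and BRD siRNA (-0.32). Against control siRNA it was called lower with YAP/TAZ mix 2 alone (-0.23). With quantile normalization it was called higher with BRD siRNA (0.20). CEBPG, a partner of ATF4 in DNA binding, was called lower in all 3 comparisons, and CEBPB, a related factor, was called higher in all 3. The CEBPB call with BRD siRNA came from mix B (log2 fold change 0.73), since mix A gave 0.21 and no call, and it was lost with DMSO as the reference (0.09).

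Sequence upstream of the start sites was searched for the composite element that ATF4 and C/EBP factors bind, TGATGNAA, on both strands, from 250 bases before to 50 after each RefSeq start. RefSeq promoters on GRCh38.p14 were matched for 44 of the 51 genes, and any listed start of a gene counted. The letters were found for 12 of the 44 genes (27.3%), against 1217 of the 27305 genes with a listed RefSeq promoter (4.46%). They were found for 7 of 13 synthetase genes, 3 of 17 amino acid response genes and 2 of 14 ER stress genes. The match describes the letters only and shows no binding. The promoters of 4 members are printed because they hold the same letters while their mRNAs moved in different ways with JQ1. ASNS and CHAC1 rose most of the element's carriers with JQ1, GARS rose less and IARS fell. All 4 were called lower with YAP/TAZ siRNA, and ASNS, CHAC1 and IARS also with BRD siRNA. Each promoter runs 5′ to 3′ along the gene's strand, with the element or its reverse complement in capitals. ASNS lies at chr7:97872359-97872658 on the minus strand with its element at positions -68 to -61 from the start site. CHAC1 lies at chr15:40953221-40953520 on the plus strand, with the reverse complement at -209 to -202. GARS lies at chr7:30594628-30594927 on the plus strand, with the reverse complement at -33 to -26. IARS lies at chr9:92293648-92293947 on the minus strand, with the reverse complement at -13 to -6.
ASNS: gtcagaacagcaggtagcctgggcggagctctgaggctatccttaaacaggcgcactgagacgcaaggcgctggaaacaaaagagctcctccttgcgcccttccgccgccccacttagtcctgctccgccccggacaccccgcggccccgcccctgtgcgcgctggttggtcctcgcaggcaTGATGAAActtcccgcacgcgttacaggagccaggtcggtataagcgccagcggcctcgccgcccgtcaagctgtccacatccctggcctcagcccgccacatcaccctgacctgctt
CHAC1: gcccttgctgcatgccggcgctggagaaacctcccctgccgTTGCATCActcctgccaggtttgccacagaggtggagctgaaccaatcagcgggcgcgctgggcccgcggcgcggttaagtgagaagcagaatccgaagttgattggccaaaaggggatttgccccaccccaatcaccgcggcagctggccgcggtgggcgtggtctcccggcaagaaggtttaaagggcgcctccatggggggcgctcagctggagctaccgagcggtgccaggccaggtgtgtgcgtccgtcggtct
GARS: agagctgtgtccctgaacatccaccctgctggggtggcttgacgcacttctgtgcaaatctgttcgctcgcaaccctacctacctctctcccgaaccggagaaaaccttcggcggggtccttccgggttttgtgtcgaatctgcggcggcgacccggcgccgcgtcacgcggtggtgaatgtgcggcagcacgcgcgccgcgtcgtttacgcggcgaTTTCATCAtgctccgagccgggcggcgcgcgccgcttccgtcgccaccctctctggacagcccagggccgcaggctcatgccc
IARS: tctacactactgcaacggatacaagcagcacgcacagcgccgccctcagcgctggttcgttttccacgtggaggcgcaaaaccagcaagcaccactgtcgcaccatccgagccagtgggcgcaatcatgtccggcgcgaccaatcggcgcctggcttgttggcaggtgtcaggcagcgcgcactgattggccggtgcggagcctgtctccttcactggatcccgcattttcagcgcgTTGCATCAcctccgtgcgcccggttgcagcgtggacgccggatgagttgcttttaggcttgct

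The feedback and signalling genes of the amino acid response mostly rose with JQ1. Of these 7 genes, 5 rose and 1 fell with JQ1 (median log2 fold change 0.92), 3 rose and 2 fell with YAP/TAZ siRNA, and 4 rose and 3 fell with BRD siRNA. The shares of all genes called higher were 37.6%, 43.1% and 37.6% in these comparisons, and those called lower 36.3%, 35.9% and 37.6%. STC2, low in every group, is among the 3 that fell with BRD siRNA. With DMSO as the reference, BRD siRNA had STC2 called higher (log2 fold change 0.30). DDIT4 encodes REDD1, an inhibitor of the growth kinase complex mTORC1. It was at 245 and 242 scaled RPM with JQ1, against 20.2 and 25.8 with DMSO, and this 10.3-fold difference was far above the spread between replicates (log2 fold change 3.36 ± 0.079 SE, limma adjusted p = 2.13e-18). With YAP/TAZ siRNA it was at 296 and 312 (mix 1) and 316 and 319 (mix 2), and with BRD siRNA at 106 and 116 (mix A) and 101 and 107 (mix B), against 87.0 and 94.0 with control siRNA. The YAP/TAZ libraries were thus all high, 3.41-fold over control siRNA (limma adjusted p = 1.96e-15), while the BRD libraries lay just above the controls (log2 fold change 0.24, limma adjusted p = 0.00317, and 0.0608 without control siRNA replicate 1). By the annotation, 41.2% of the exon bases of DDIT4 overlap an antisense gene, and whether reads were counted by strand is not stated.

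CHAC1, a glutathione-degrading enzyme induced by ATF4, went in opposite directions with JQ1 and with the knockdowns. JQ1 libraries held 20.5 and 22.1 scaled RPM, against 3.89 and 4.47 in DMSO libraries, a 4.31-fold difference (log2 fold change 2.11 ± 0.14 SE, limma adjusted p = 1.79e-11). YAP/TAZ libraries held 3.80 and 5.41 (mix 1) and 4.37 and 5.97 (mix 2), and BRD libraries 2.84 and 3.33 (mix A) and 6.87 and 6.35 (mix B), against 8.63 and 9.51 in control siRNA libraries. Every knockdown library was below both controls, with log2 fold changes of -0.79 for YAP/TAZ and -0.85 for BRD siRNA (limma adjusted p = 4.93e-06 and 1.95e-06). Against DMSO in place of control siRNA, those differences were 0.17 and 0.11 and neither was called, and CHAC1 was itself higher with control siRNA than with DMSO.

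TRIB3, a pseudokinase gene that restrains ATF4 and is one of its targets, fell with both BRD siRNA and JQ1. It was at 4.41 and 3.51 scaled RPM with BRD mix A and 8.71 and 8.48 with mix B, against 25.7 and 31.1 with control siRNA, a 4.26-fold lower level (log2 fold change -2.09 ± 0.088 SE, limma adjusted p = 1.12e-14). JQ1 libraries held 14.3 and 16.6, against 33.8 and 32.5 with DMSO (log2 fold change -1.06, limma adjusted p = 6.57e-09). Both comparisons thus showed a lower level in every library. YAP/TAZ libraries held 38.6 and 40.3 (mix 1) and 32.1 and 32.8 (mix 2), and the log2 fold change of 0.33 (limma adjusted p = 0.002) was not called without control siRNA replicate 1 (0.0972) or with mix 2 alone (0.0923).

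SESN2, a leucine sensor that also restrains mTORC1, rose in all 3 comparisons, most with JQ1, at 28.2 and 27.4 scaled RPM against 9.86 and 10.8 with DMSO (log2 fold change 1.35, limma adjusted p = 1.37e-11). The BRD mixes were unlike each other: SESN2 was at 13.04 and 12.9 with mix A and 28.7 and 28.6 with mix B, against 13.2 and 15.7 with control siRNA, so its rise with BRD siRNA (log2 fold change 0.40) came from mix B. PPP1R15A encodes GADD34, which removes the phosphate from eIF2alpha. It was at 72.6 and 74.2 scaled RPM with YAP/TAZ mix 1, 61.9 and 67.6 with YAP/TAZ mix 2, 176 and 158 with BRD mix A and 233 and 222 with BRD mix B, against 93.0 and 93.4 with control siRNA. It therefore fell with YAP/TAZ siRNA (log2 fold change -0.43, limma adjusted p = 1.86e-07) and rose with BRD siRNA (1.06, limma adjusted p = 1.52e-13) and with JQ1 (0.53, limma adjusted p = 9.51e-08). VLDLR, a lipoprotein receptor gene, rose with JQ1, at 15.6 and 19.1 scaled RPM against 8.07 and 9.31 with DMSO (log2 fold change 0.92, limma adjusted p = 2.81e-07). Among the knockdowns it depended on the mix: it was at 30.6 and 30.5 with YAP/TAZ mix 1 and 7.18 and 9.41 with mix 2, and at 25.4 and 24.1 with BRD mix A and 10.7 and 11.9 with mix B, against 14.1 and 13.4 with control siRNA.

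The enzymes of amino acid and folate metabolism fell with both knockdowns and split with JQ1. Of these 8 genes, 6 fell and 1 rose with YAP/TAZ siRNA (median log2 fold change -0.84), 6 fell and 1 rose with BRD siRNA (median -0.85), and 4 fell and 3 rose with JQ1 (median -0.09). Among all genes, 35.9%, 37.6% and 36.3% were called lower in these comparisons, and 43.1%, 37.6% and 37.6% higher. ASNS encodes asparagine synthetase. JQ1 libraries held 324 and 328 scaled RPM of it, against 50.2 and 50.6 in DMSO libraries, a 6.36-fold difference (log2 fold change 2.67 ± 0.088 SE, limma adjusted p = 2.39e-16). YAP/TAZ libraries held 35.8 and 38.6 (mix 1) and 24.3 and 29.4 (mix 2), and BRD libraries 37.3 and 44.0 (mix A) and 27.0 and 24.8 (mix B), against 58.2 and 51.4 in control siRNA libraries. All 8 knockdown libraries were below the controls (log2 fold changes -0.78 and -0.74, limma adjusted p = 7.51e-09 and 1.98e-08). ASNS has 4 named pseudogenes, and 44.6% of its exon bases overlap another gene on the same strand, so the counting could have split its reads.

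The serine pathway genes did not move as a block. PSAT1, phosphoserine aminotransferase, was at 55.1 and 59.2 scaled RPM with YAP/TAZ mix 1, 61.3 and 68.4 with YAP/TAZ mix 2, 73.1 and 86.3 with BRD mix A and 39.8 and 42.5 with BRD mix B, against 123 and 114 with control siRNA. Every knockdown library was far below the controls (log2 fold changes -0.95 with YAP/TAZ and -1.04 with BRD siRNA, limma adjusted p = 1.43e-11 and 4.55e-12). With JQ1 it was at 186 and 187 against 165 and 163 with DMSO, and this call (log2 fold change 0.19, limma adjusted p = 0.0275) was lost when any 1 of the 4 libraries was left out. PHGDH, which starts serine synthesis, fell with BRD siRNA to 10.8 and 12.6 (mix A) and 7.99 and 7.76 (mix B), against 22.6 and 24.7 with control siRNA (log2 fold change -1.22, limma adjusted p = 6.31e-11). It was not called with YAP/TAZ siRNA (log2 fold change -0.05) or JQ1 (0.09). PSPH, which completes the pathway, was called higher in all 3 comparisons, but with BRD siRNA through mix A (log2 fold change 0.33, against 0.05 and no call with mix B), and it was called lower with BRD siRNA when DMSO was the reference (-0.13).

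SHMT2 and MTHFD2, mitochondrial enzymes that carry folate 1-carbon units, fell most with YAP/TAZ siRNA. SHMT2 was at 68.7 and 73.1 scaled RPM with YAP/TAZ mix 1, 99.97 and 106 with YAP/TAZ mix 2, 150 and 156 with BRD mix A and 148 and 157 with BRD mix B, against 231 and 230 with control siRNA. It was 2.68-fold lower with YAP/TAZ siRNA and 1.51-fold lower with BRD siRNA (limma adjusted p = 2.62e-16 and 5.26e-10). In JQ1 libraries it was at 166 and 158, against 261 and 263 with DMSO (log2 fold change -0.69, limma adjusted p = 4.65e-10). MTHFD2 was 3.06-fold lower with YAP/TAZ siRNA, at 25.3 to 30.4 scaled RPM in 4 libraries, and 1.96-fold lower with BRD siRNA, at 40.4 to 50.99, against 88.4 and 85.3 with control siRNA (limma adjusted p = 2.35e-14 and 1.41e-10). JQ1 moved it less (log2 fold change -0.27, limma adjusted p = 0.00757), and that call was lost without DMSO replicate 1 (0.0862) or JQ1 replicate 1 (0.0849). MTHFD2 has 7 named pseudogenes, and 33.2% of its exon bases overlap an antisense gene. Of the proline synthesis genes, PYCR1 was called lower in all 3 comparisons and ALDH18A1 with YAP/TAZ siRNA and JQ1.

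**Figure D2:**
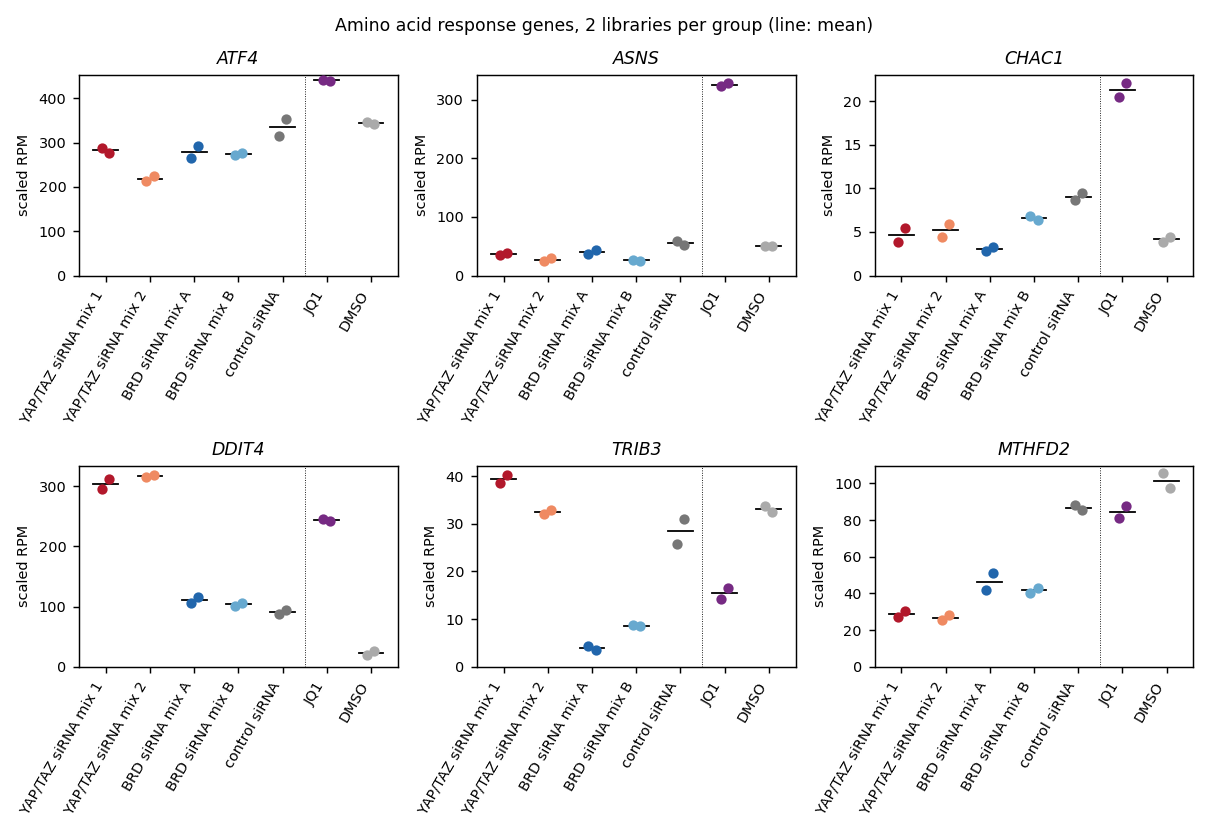
Scaled RPM in each library (points) and group mean (line) of ATF4, ASNS, CHAC1, DDIT4, TRIB3 and MTHFD2 in the 7 groups; the dotted line parts the siRNA groups from JQ1 and DMSO. ASNS stands at 324 and 328 with JQ1 and at 24.3 to 58.2 in every other group, while TRIB3 is lowest with BRD mix A, at 4.41 and 3.51.

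A further list holds other transporters, enzymes and regulators of the amino acid response that are not among the 51. More of them were called lower than higher with the knockdowns, and more higher than lower with JQ1. Of 23 tested, 5 rose and 13 fell with YAP/TAZ siRNA, 4 rose and 15 fell with BRD siRNA, and 12 rose and 8 fell with JQ1. Over all genes, 43.1% were called higher and 35.9% lower with YAP/TAZ siRNA, and 37.6% each way with BRD siRNA. The shares with JQ1 were 37.6% higher and 36.3% lower, so the lower calls of this list were near the share of all genes. CTH, cystathionine gamma-lyase, had log2 fold changes of -0.32 with YAP/TAZ siRNA, -0.55 with BRD siRNA and 2.25 with JQ1, all called. GDF15, a stress-induced cytokine gene, rose with YAP/TAZ siRNA (3.79) and was not called with BRD siRNA (-0.11) or JQ1 (-0.12). KLHL24 rose in all 3 comparisons (2.42, 1.74 and 2.59), and SLC6A9, a glycine transporter gene, rose with YAP/TAZ siRNA (1.84) and JQ1 (0.37).

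Because JQ1 and knockdown have separate references, the difference of their effects was fitted as its own contrast. JQ1's effect exceeded that of BRD siRNA for 26 of the 51 genes and was below it for 10, where 30.2% of all genes were called higher and 29.9% lower. It exceeded that of YAP/TAZ siRNA for 31 genes and was below it for 6, where 30.9% of all genes were called higher and 32.4% lower. ASNS gave the widest gap in both (3.41 over BRD siRNA and 3.45 over YAP/TAZ siRNA, on the log2 scale), with limma adjusted p = 5.53e-15 and 1.77e-15. CHAC1 had gaps of 2.96 and 2.90, and DDIT4 of 3.12 and 1.59. The DDIT4 gap of 1.59 rested on the reference: set against DMSO, DDIT4 had a log2 fold change of 3.71 with YAP/TAZ siRNA and 3.36 with JQ1. The times differ, 24 h for JQ1 against 48 h and 72 h for the knockdowns, and cannot be told apart from the agents. Some genes also differed between the references: with control siRNA against DMSO, 13 of the 51 were called higher and 20 lower, where 25.4% of all genes were called higher and 28.7% lower. DDIT4 differed most there (log2 fold change 1.94, limma adjusted p = 9.26e-14), followed by CHAC1 (0.96, limma adjusted p = 7.87e-06), while ATF4 (-0.05) and ASNS (0.12) were not called. Set against DMSO, YAP/TAZ siRNA had 14 of the 51 higher and 29 lower, where 44.4% of all genes were called higher and 39.8% lower, and BRD siRNA had 14 higher and 31 lower, where 39.1% were called higher and 39.7% lower.

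Among the ER stress genes the sensors and their factors each behaved in their own way. XBP1, the substrate of IRE1, was at 150 and 160 scaled RPM with YAP/TAZ mix 1, 210 and 207 with YAP/TAZ mix 2, 52.4 and 55.3 with BRD mix A and 48.4 and 53.3 with BRD mix B, against 79.1 and 74.0 with control siRNA. It rose 2.33-fold with YAP/TAZ siRNA and was 1.45-fold lower with BRD siRNA (limma adjusted p = 2.15e-14 and 1.51e-08). JQ1 libraries held 46.0 and 49.2, against 58.7 and 57.1 with DMSO (log2 fold change -0.28, limma adjusted p = 0.000497). These are levels of all XBP1 mRNA, and the spliced form was not measured. ERN1, which encodes IRE1, rose in all 3 comparisons: it was at 11.7 and 11.6 scaled RPM with YAP/TAZ mix 1, 5.95 and 4.91 with YAP/TAZ mix 2, 7.87 and 7.85 with BRD mix A and 5.88 and 6.18 with BRD mix B, against 3.78 and 3.91 with control siRNA. With JQ1 it was at 15.9 and 16.1, against 5.38 and 5.63 with DMSO (log2 fold change 1.38, limma adjusted p = 1.13e-10). ATF6 was not called in any of the 3, with log2 fold changes of 0.05, 0.04 and 0.09.

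EIF2AK3, the gene of PERK, went in opposite directions with the 2 YAP/TAZ mixes. It was at 51.5 and 47.5 scaled RPM with mix 1 and 12.4 and 12.8 with mix 2, against 26.2 and 28.1 with control siRNA. The mean of both mixes (log2 fold change -0.10, not called) stood for neither: the log2 fold change was 0.84 with mix 1 and -1.05 with mix 2 (limma adjusted p = 4.57e-09 and 1.16e-10). With BRD siRNA it was at 13.8 and 14.5 (mix A) and 17.5 and 18.9 (mix B), so it fell with both (log2 fold change -0.72, limma adjusted p = 5.54e-09). It was not called with JQ1 (-0.07). PPP1R15B, the constitutive partner of the eIF2alpha phosphatase, had log2 fold changes of -0.22 with YAP/TAZ siRNA, 0.02 with BRD siRNA, which was not called, and 0.27 with JQ1. The YAP/TAZ value came from mix 2 (-0.45, against 0.0070 and no call with mix 1) and turned to a called 0.19 with DMSO as the reference. The BRD mixes were called in opposite directions, at -0.17 with mix A and 0.21 with mix B.

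All 3 members that act in ER-associated degradation (EDEM1, SEL1L and HERPUD1) were called higher with BRD siRNA and with JQ1. In each comparison, 37.6% of all genes were called higher. Genes called higher with both were 17.2% (also higher with YAP/TAZ siRNA), 2.95% (lower there) and 4.07% (not called there) of all genes tested. Of 4 other genes of this pathway tested, named by choice after their values were seen, SYVN1 and OS9 were called higher with both, DERL1 was called lower with BRD siRNA (log2 fold change -0.40) and had -0.11 with JQ1, and DERL2 had 0.12 with BRD siRNA and was called lower with JQ1 (-0.55). EDEM1, which hands misfolded glycoproteins to degradation, was at 232 and 242 scaled RPM with BRD mix A and 171 and 167 with mix B, against 60.9 and 58.6 with control siRNA, a 3.31-fold rise (log2 fold change 1.73 ± 0.05 SE, limma adjusted p = 4.76e-17). With JQ1 it was at 125 and 126, against 84.4 and 77.3 with DMSO (log2 fold change 0.63, limma adjusted p = 3.97e-09). With YAP/TAZ siRNA it stood at 60.2 and 57.2 with mix 1, level with the controls, and at 16.6 and 16.8 with mix 2. Its call with YAP/TAZ siRNA (log2 fold change -0.90) thus rested on mix 2 (-1.77), since mix 1 alone gave -0.03 and no call.

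SEL1L, the adaptor of the HRD1 ubiquitin ligase, was at 258 and 282 scaled RPM with BRD mix A and 219 and 217 with mix B, against 162 and 150 with control siRNA (log2 fold change 0.63, limma adjusted p = 2.26e-10). JQ1 libraries held 232 and 235, against 136 and 129 in DMSO libraries (log2 fold change 0.81, limma adjusted p = 4.56e-11). With YAP/TAZ siRNA it was lower (log2 fold change -0.21, limma adjusted p = 0.000585), and this call reversed to 0.02, not called, against DMSO. HERPUD1, a membrane protein of the same ligase complex, rose in all 3 comparisons and with every mix. It was at 92.0 to 100.1 scaled RPM in the 4 YAP/TAZ libraries and 88.1 to 102 in the 4 BRD libraries, against 53.4 and 59.95 with control siRNA (log2 fold changes 0.74 and 0.72, limma adjusted p = 6.25e-11 and 1.27e-10). JQ1 libraries held 98.6 and 98.0, against 48.8 and 49.3 in DMSO libraries (log2 fold change 0.99, limma adjusted p = 7.91e-12).

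The folding factors of the ER parted by YAP/TAZ mix. All 6 of them (SDF2L1, PDIA4, PDIA6, HYOU1, CRELD2 and MANF) exceeded their mix 2 levels when cells had received mix 1, as called by limma, with a median log2 difference of 0.81. Over the 14 ER stress genes, 11 were called higher and 1 lower in the comparison of mix 1 with mix 2, where 30.9% of all genes were called higher and 34.8% lower. Against control siRNA, mix 1 raised 10 of the 14 and lowered 1, where 40.6% and 33.6% of all genes were called, while mix 2 raised 3 and lowered 9, where 42.7% and 35.7% were called. HYOU1, an ER chaperone induced by low oxygen, was at 441 and 473 scaled RPM with mix 1 and 82.6 and 91.5 with mix 2, against 283 and 281 with control siRNA. Neither mix overlapped the controls, and the log2 fold changes of 0.69 and -1.69 (limma adjusted p = 1.46e-09 and 5.44e-16) differed by 2.38. The log2 fold change of -0.50 given by the mean of both mixes stands for neither.

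PDIA4, a protein disulfide isomerase, was at 300 and 315 scaled RPM with YAP/TAZ mix 1 and 112 and 122 with mix 2, against 167 and 170 with control siRNA (log2 fold changes 0.86 and -0.53, limma adjusted p = 1.84e-11 and 3.74e-08). With BRD siRNA it was at 270 and 295 (mix A) and 238 and 239 (mix B), higher with both (log2 fold change 0.62), and with JQ1 at 235 and 225 against 182 and 182 with DMSO (0.33). PDIA6, another disulfide isomerase, had log2 fold changes of 0.43 with YAP/TAZ mix 1 and -0.38 with mix 2, and MANF, a secreted ER stress protein, had 0.35 and -0.18. With BRD siRNA neither moved by more than 0.16, and with JQ1 PDIA6 fell by 0.20 on the log2 scale while MANF rose by 0.43. SDF2L1 was called lower in all 3 comparisons, but with YAP/TAZ siRNA through mix 2 (log2 fold change -0.74), since mix 1 gave 0.08 and no call. CRELD2 was called higher with YAP/TAZ siRNA through mix 1 (0.40), since mix 2 gave 0.10 and no call, and it was not called with BRD siRNA or JQ1.

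**Figure D3:**
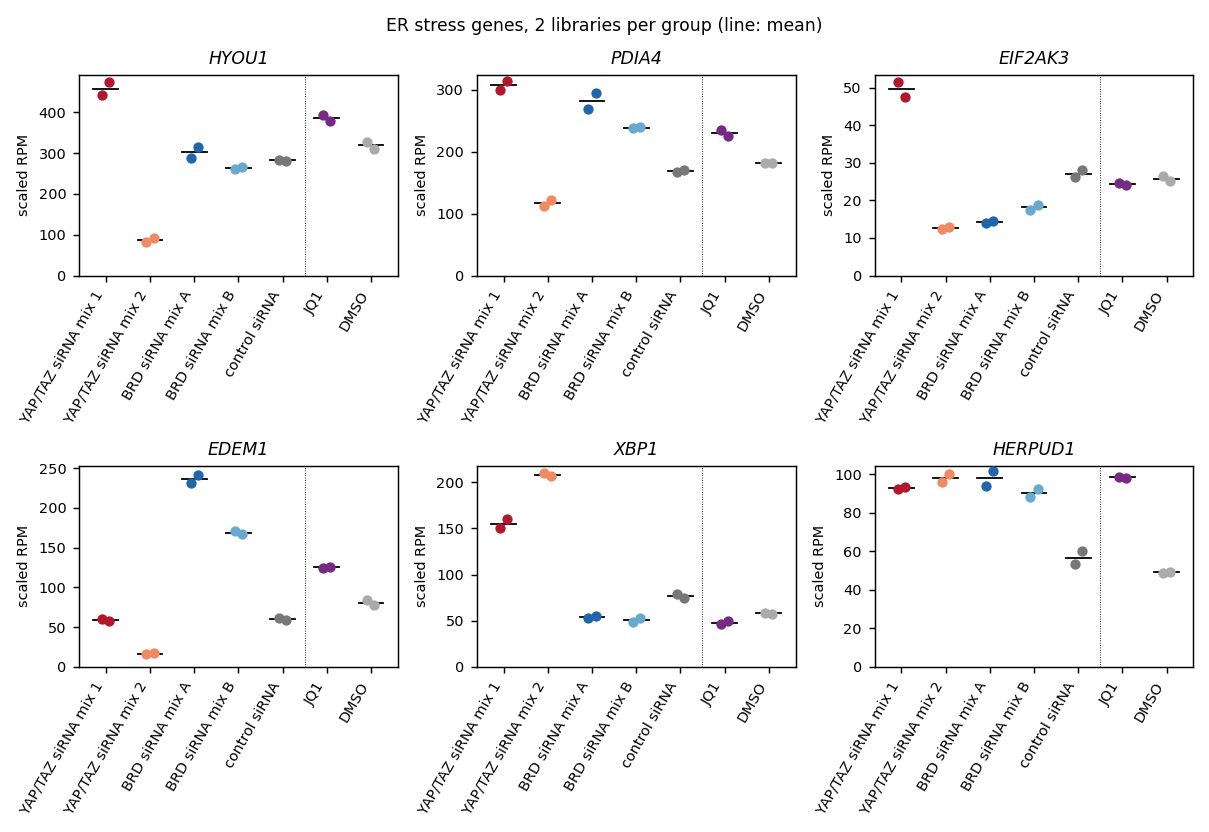
Scaled RPM in each library (points) and group mean (line) of HYOU1, PDIA4, EIF2AK3, EDEM1, XBP1 and HERPUD1 in the 7 groups; the dotted line parts the siRNA groups from JQ1 and DMSO. HYOU1, PDIA4 and EIF2AK3 lie above control siRNA with YAP/TAZ mix 1 and below it with mix 2, EDEM1 is highest with BRD siRNA at 167 to 242, and HERPUD1 is higher than its reference in every treated group.

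The promoters of these genes were searched for the elements of the unfolded protein response. The ER stress element, CCAAT followed after 9 bases by CCACG, was found on either strand for 3 of 44 genes (XBP1, PDIA6 and CRELD2), against 25 of the 27305 genes with a listed promoter (0.0916%). The UPR element TGACGTGG was found for 3 of 44 genes (HYOU1, ALDH18A1 and CARS), against 253 genes (0.927%). Promoters of 3 members are shown because their mRNAs moved apart although each holds such an element: with YAP/TAZ mix 2 against control siRNA, XBP1 rose while PDIA6 and HYOU1 fell. All are on the minus strand of GRCh38.p14, run 5′ to 3′ along the gene and hold the element in capitals. XBP1 lies at chr22:28800520-28800819 with the ER stress element at -52 to -34. PDIA6 lies at chr2:10812736-10813035 with the same element at -86 to -68. HYOU1 lies at chr11:119057156-119057455 with the UPR element at -188 to -181.
XBP1: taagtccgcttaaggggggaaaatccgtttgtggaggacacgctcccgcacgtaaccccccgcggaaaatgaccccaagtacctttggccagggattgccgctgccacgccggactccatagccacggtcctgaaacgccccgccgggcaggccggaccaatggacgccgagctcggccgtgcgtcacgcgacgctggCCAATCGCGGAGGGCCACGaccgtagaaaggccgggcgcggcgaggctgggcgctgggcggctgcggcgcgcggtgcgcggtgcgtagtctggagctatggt
PDIA6: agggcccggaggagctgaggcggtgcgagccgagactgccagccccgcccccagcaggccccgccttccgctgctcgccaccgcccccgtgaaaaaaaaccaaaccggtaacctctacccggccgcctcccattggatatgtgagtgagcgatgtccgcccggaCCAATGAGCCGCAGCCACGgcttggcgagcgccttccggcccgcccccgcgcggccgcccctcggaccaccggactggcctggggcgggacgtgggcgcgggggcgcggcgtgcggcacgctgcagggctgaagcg
HYOU1: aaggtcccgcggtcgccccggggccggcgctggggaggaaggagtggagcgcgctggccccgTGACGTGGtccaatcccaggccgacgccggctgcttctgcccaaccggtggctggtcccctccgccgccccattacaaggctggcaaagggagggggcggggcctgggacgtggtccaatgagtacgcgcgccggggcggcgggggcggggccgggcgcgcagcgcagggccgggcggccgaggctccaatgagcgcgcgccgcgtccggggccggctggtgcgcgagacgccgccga

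Other ER stress genes, 25 chaperones, oxidases, translocation and degradation factors outside the 51, parted by mix as well. With YAP/TAZ mix 1 against mix 2, 19 were higher and 5 lower, where 30.9% of all genes were called higher and 34.8% lower. Their median log2 difference was 0.84. HSPA5, the ER chaperone BiP and the best known marker of the unfolded protein response, is given by choice after its values were seen: it fell with both mixes, with log2 fold changes of -0.65 with mix 1 and -0.42 with mix 2, and it rose with BRD siRNA (0.39) and JQ1 (0.60). Over both mixes, 12 of the 25 rose and 6 fell with YAP/TAZ siRNA, 15 rose and 6 fell with BRD siRNA, and 14 rose and 8 fell with JQ1. Among all genes, 43.1%, 37.6% and 37.6% were called higher in these comparisons, and 35.9%, 37.6% and 36.3% lower. OS9, a lectin of ER-associated degradation, rose in all 3 (0.58, 0.92 and 0.89), and ERO1LB, an oxidase gene, rose by 0.21, 0.92 and 1.05. ERO1L, the related oxidase, fell with log2 fold changes of -0.88 with YAP/TAZ siRNA, -0.21 with BRD siRNA and -0.21 with JQ1, and DNAJB11, a co-chaperone of BiP, fell most with JQ1 (-0.89).

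**Figure D4:**
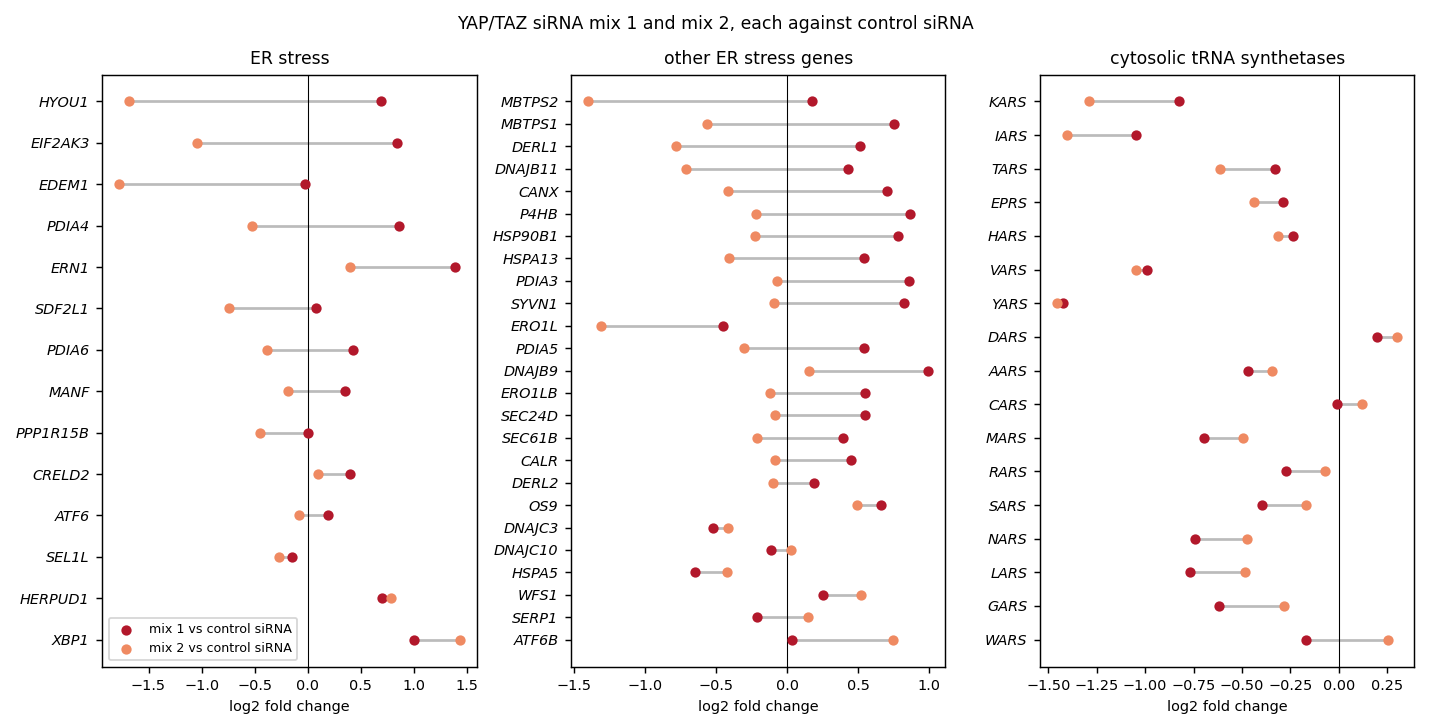
Log2 fold changes of YAP/TAZ siRNA mix 1 (dark) and mix 2 (light), each against control siRNA, for the 14 ER stress genes, 25 other ER stress genes and the 17 cytosolic synthetases; grey lines join the mixes. Most ER genes lie further right with mix 1, with HYOU1 at 0.69 against -1.69 with mix 2, whereas YARS and VARS lie at almost the same fall with both mixes.

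The cytosolic synthetases, each of which loads 1 kind of amino acid (EPRS loads a pair) onto its tRNA, fell with YAP/TAZ siRNA as a class, with a median log2 fold change of -0.45 and 4 genes lowered by 2-fold or more. YARS, the tyrosine enzyme, was at 92.8 and 98.5 scaled RPM with mix 1 and 88.2 and 99.6 with mix 2, against 259 and 258 with control siRNA. All 4 libraries were far below both controls, 2.71-fold on average (log2 fold change -1.44 ± 0.055 SE, limma adjusted p = 1.43e-15). IARS, the isoleucine enzyme, was at 336 and 348 with mix 1 and 249 and 284 with mix 2, against 742 and 674 with control siRNA (log2 fold change -1.23, limma adjusted p = 3.91e-14). KARS, which serves lysine, was at 182 and 189 with mix 1 and 128 and 141 with mix 2, against 341 and 319 with control siRNA (log2 fold change -1.06, limma adjusted p = 4.47e-13). VARS, for valine, was at 86.9 and 102 with mix 1 and 89.4 and 91.8 with mix 2, against 183 and 193 with control siRNA (log2 fold change -1.02, limma adjusted p = 5.04e-13). These 4 genes fell with both mixes, and mix 1 lowered 15 of the 17 while mix 2 lowered 13. Of all genes, 33.6% were called lower with mix 1 and 35.7% with mix 2.

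DARS, for aspartate, was the 1 synthetase gene called higher with YAP/TAZ siRNA: it was at 134 and 133 scaled RPM with mix 1 and 144 and 143 with mix 2, against 121 and 112 with control siRNA (log2 fold change 0.25, limma adjusted p = 8.73e-05). That direction rested on the reference, since against DMSO libraries, at 182 and 174, the log2 difference was -0.36. WARS, the tryptophan enzyme, which interferon also induces, was at 127 and 134 with mix 1 and 165 and 185 with mix 2, against 145 and 148 with control siRNA. It was thus called lower with mix 1 (log2 fold change -0.17) and higher with mix 2 (0.25). RARS, for arginine, fell by 0.17 on the log2 scale (limma adjusted p = 0.00617), and this call was lost without control siRNA replicate 1 (0.156).

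With BRD siRNA the synthetase genes fell less, with a median log2 fold change of -0.27 and no gene lowered by 2-fold. AARS, the alanine enzyme, fell most: it was at 131 and 132 scaled RPM with mix A and 136 and 136 with mix B, against 260 and 248 with control siRNA (log2 fold change -0.92 ± 0.05 SE, limma adjusted p = 7.91e-13). VARS was at 137 and 129 with mix A and 109 and 111 with mix B (log2 fold change -0.63), and WARS at 103 and 115 with mix A and 84.4 and 90.1 with mix B (-0.58). IARS, at 496 and 533 with mix A and 436 and 443 with mix B, had a log2 fold change of -0.57. These 4 genes were below control siRNA in every BRD library. DARS and RARS were called higher (log2 fold changes 0.18 and 0.13), but both calls were lost without control siRNA replicate 2 (limma adjusted p = 0.0643 and 0.443), and that of RARS also without BRD mix A replicate 2, mix B replicate 1 or mix B replicate 2 (0.0554 to 0.0852). LARS, for leucine, and EPRS, for glutamate and proline, fell by 0.15 and 0.18 on the log2 scale, and both calls were lost without control siRNA replicate 1 (0.298 and 0.182). Fitted against each other, YAP/TAZ siRNA gave lower levels than BRD siRNA for 13 of the 17 genes and higher levels for 3, where 40.3% of all genes were called lower and 41.1% higher.

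With JQ1 the synthetases divided, with 8 called lower, 4 higher and 5 not called. Of all genes, 36.3% were called lower and 37.6% higher with JQ1. VARS fell most, at 136 and 133 scaled RPM with JQ1 against 257 and 265 with DMSO (log2 fold change -0.95 ± 0.064 SE, limma adjusted p = 2.24e-11). KARS was at 283 and 281 with JQ1, against 431 and 404 with DMSO (log2 fold change -0.56), and IARS at 473 and 491, against 730 and 692 (-0.56). LARS, at 221 and 230 against 311 and 302, had a log2 fold change of -0.44 (limma adjusted p = 4.76e-07). The genes that rose were SARS, for serine, at 378 and 370 against 293 and 294, GARS, for glycine, at 412 and 439 against 339 and 331, EPRS, at 498 and 542 against 423 and 400, and WARS, at 145 and 145 against 128 and 127. Their log2 fold changes were 0.35, 0.34, 0.34 and 0.19, and that of WARS was not called without DMSO replicate 2 or JQ1 replicate 2 (limma adjusted p = 0.0533 and 0.0501). SARS, GARS and EPRS had fallen with YAP/TAZ siRNA, by 0.28, 0.45 and 0.36 on the log2 scale. YARS, with a log2 fold change of -0.21, was not called without JQ1 replicate 1 (limma adjusted p = 0.0636). JQ1's effect exceeded that of YAP/TAZ siRNA for 13 of the 17 genes and was below it for 1, DARS. For this difference, 30.9% of all genes were called higher and 32.4% lower.

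The rest of the charging machinery was also low with YAP/TAZ siRNA. Of 6 other cytosolic synthetases and scaffold proteins, 5 fell and 1 rose, led by FARSB, a subunit of the phenylalanine enzyme, with a log2 fold change of -2.31, and AIMP2, a scaffold of the multi-synthetase complex, with -1.77. With BRD siRNA 3 of the 6 fell and 1 rose, and with JQ1 5 fell and 0 rose, where FARSB had -0.83 and -0.95, and AIMP2 had -0.04 (not called) with BRD siRNA and -0.89 with JQ1. Of 17 mitochondrial synthetase genes, 12 fell and 2 rose with YAP/TAZ siRNA, 10 fell and 3 rose with BRD siRNA, and 9 fell and 2 rose with JQ1. Beside both lists, 35.9%, 37.6% and 36.3% of all genes were called lower in these comparisons, and 43.1%, 37.6% and 37.6% higher. EARS2, for glutamate, had log2 fold changes of -1.37 with YAP/TAZ siRNA, -1.13 with BRD siRNA and -0.33 with JQ1, all called lower. SARS2, the mitochondrial serine enzyme, fell with BRD siRNA alone among the 3 calls (log2 fold change -1.54, against -0.12 with YAP/TAZ siRNA and -0.02 with JQ1, which were not called).

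The BRD mixes differed as well. Against control siRNA, mix A raised 11 of the 51 genes and lowered 23, where 37.2% of all genes were called higher and 36.1% lower, and mix B raised 13 and lowered 30, where 35.3% were called higher and 35.5% lower. Between mix A and mix B, 23 of the 51 genes were called higher and 8 lower, where 25.7% of all genes were called higher and 24.3% lower. Of the 17 synthetases, 10 were higher with mix A and 0 lower, so the fall was milder with mix A, where 8 of 17 were called lower against control siRNA. PSAT1 (log2 difference 0.93) and ASNS (0.63) were higher with mix A, and SESN2 (-1.09), TRIB3 (-0.96) and CHAC1 (-0.90) were higher with mix B. Opposite calls against control siRNA with the 2 mixes were limited to VLDLR and PPP1R15B among the 51, and the share of all genes with such calls was not computed. The libraries of mix A differed more from each other than those of any other group (chi-square per gene 10.4, against 3.43 to 4.89). All groups share 1 estimate of the spread in the fit, so p-values for mix A may be too small.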

How the data were processed

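Stranded libraries of MDA-MB-231 total RNA, depleted of ribosomal RNA, were sequenced, per the labels' protocols. Alignment and counting tools, per the submitters' processing notes, include TopHat2 2.0.5 and HTSeq 0.6.0, beside CASAVA 1.8.4, edgeR, R 3.0.0 and hg19. No source used here gives the annotation, the strand setting or the scaling. The deposited signal is called CPM by the table's name, but its columns do not share 1 total. It equals RPM divided by a scaling factor of 0.911 to 1.11 that matches edgeR's TMM factor, and is called scaled RPM. Whole reads were recovered for 100% of values at a tolerance of 0.01. The design had assumed CPM, and the test was kept.

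Values were tested with limma 3.58.1 (R 4.3.3) on log2(value + 1) with a variance trend, in 1 model of 7 groups and 14 libraries. Genes above 1 in at least 2 libraries were tested (13674 of 13734), and p-values were adjusted by Benjamini-Hochberg over all of them at a threshold of 0.05. The mixes of 1 target were averaged as groups. The model had 7 residual degrees of freedom. The fit was tested on simulated data. Alternatives were other pseudocounts, filters, scalings and samples, a replicate block, edgeR 4.0.16 and DESeq2 1.42.0 on recovered reads.

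Members and lists were chosen with earlier results of these data known. Named with values are ATF4, DDIT3, ATF6, XBP1, ERN1, EIF2AK3, the 4 members with the largest absolute fold change per class and comparison, and members called in opposite directions, 37 in all. At most 4 genes per further list are named, and 1 that this would name is not reported here. Overlaps and pseudogenes come from GENCODE release 29: 10 members have over 10% of exon bases under an antisense gene and 13 have named pseudogenes. Promoters are from RefSeq (GRCh38.p14).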

Additional observations from a re-analysis of the deposited data

Results flagged for a closer look

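For 9 pairs of gene and target, both siRNA mixes of 1 target were called against control siRNA, in opposite directions. The difference between the mixes was itself called by limma for each pair. The share of all genes with such opposite calls was not computed, so these pairs cannot be called unusual. Between the YAP/TAZ mixes, 30.9% of all genes were called higher with mix 1 and 34.8% lower. Between the BRD mixes, 25.7% were called higher with mix A and 24.3% lower. Pairs of opposite sign in which 1 mix was not called, such as SESN2 with BRD siRNA, are not among the 9. For YAP/TAZ siRNA, mix 1 exceeded mix 2 on the log2 scale by 2.38 for HYOU1, 1.89 for EIF2AK3, 1.78 for VLDLR, 1.39 for PDIA4, 0.81 for PDIA6 and 0.53 for MANF. For WARS the difference of mix 1 minus mix 2 was -0.42. For BRD siRNA, mix A minus mix B was 1.07 for VLDLR and -0.38 for PPP1R15B. With each mix, both libraries lay on the same side of the controls' mean, and each group had 2 libraries.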

How the results depend on the processing

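Of 111 log2 fold changes (37 genes in 3 comparisons), 73 kept their direction and their side of the threshold in every alternative run, and 38 changed in at least 1; the cause was not tested. The synthetases called higher with BRD siRNA (2) were 1 with median-ratio, upper-quartile or quantile scaling, with no variance trend, with only the groups compared, with mix A alone and with DESeq2, 0 with DMSO libraries as control, and 0 to 2 when 1 library was left out (0 without control siRNA replicate 2). Those called higher with YAP/TAZ siRNA (1) were 2 with upper-quartile scaling, 3 with quantile normalization, 2 with mix 2 alone and 2 with DMSO libraries as control. ER stress genes called higher with YAP/TAZ siRNA (5) were 10 with mix 1 and 3 with mix 2, and those called lower (5) were 1 with mix 1, 9 with mix 2 and 3 with DMSO libraries as control. With BRD siRNA, synthetases called lower (13) were 8 with mix A alone, and ER stress genes called lower (3) were 5 with DMSO libraries as control. Log2 fold changes reversed with YAP/TAZ mix 1 alone for EIF2AK3 (0.84), HYOU1 (0.69), PPP1R15B (0.0070) and WARS (-0.17), and with mix 2 alone for VLDLR (-0.67), PDIA4 (-0.53), PDIA6 (-0.38) and MANF (-0.18). They reversed with BRD mix A alone for SESN2 (-0.14) and PPP1R15B (-0.17), and with mix B alone for VLDLR (-0.26). With DMSO libraries as control they reversed for CHAC1 (0.17), SEL1L (0.019), PPP1R15B (0.19) and DARS (-0.36) with YAP/TAZ siRNA, and for DDIT3 (-0.32), CHAC1 (0.11), RARS (-0.16) and DARS (-0.43) with BRD siRNA. Upper-quartile scaling moved the median of all genes with YAP/TAZ siRNA to 0.13.

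Replicate numbers did not pair the libraries: over 21 pairs of groups, the correlation of same-numbered deviations ran from -0.37 to 0.25 and passed 0.1 in 7. With the replicate number as a block, 13 members were called higher and 29 lower with YAP/TAZ siRNA, 14 and 26 with BRD siRNA, and 23 and 17 with JQ1.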
